A study of Mus musculus with 12 samples.

Results

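The transcripts of 10 genes that make or consume the dinucleotide NAD were followed in bone marrow stem and progenitor cells of Cbfb-MYH11 and wild-type mice. The 10 are Cd38, Bst1, Nampt, Nmnat1, Nmnat3, Nadsyn1, Parp1, Parp2, Sirt2 and Sarm1. They are 10 of the 25078 genes in the deposited tables and 10 of the 14599 that passed the filter on low counts. They were selected by symbol, with earlier results of these data known, so every value of theirs below is a description. The fold changes and adjusted p-values show where each gene stands in the fit over all genes and are not independent evidence.

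Total RNA was sequenced with stranded, ribosomal-RNA-depleted libraries from LSK cells, the lineage-negative, Sca1-positive, Kit-positive fraction that holds the stem cells and early progenitors of the marrow. There were 4 groups with 3 libraries each. The CM IR group is LSK cells of mice that carry Cbfb-MYH11, the fusion gene made by the inv(16) rearrangement of human acute myeloid leukemia, taken at the preleukemic stage, given 3.5 Gy after sorting and collected 24 h later. CM NIR is cells of the same genotype that were incubated alike without irradiation. WT IR and WT NIR are the control cells, called wild-type here, treated in the same 2 ways. The titles of these samples read control. Within this group the code WT appears only in the library names of animal 2. The letter C takes its place for the rest of the group. Whether these codes mark different genotypes was not tested. The sample labels give neither the animals' age nor the promoter or Cre that switches the fusion on. By the animal numbers in the sample descriptions, each of the 6 animals gave an irradiated and an unirradiated library. Animal 1 of a genotype is thus labelled as the same mouse in both treatments. Library totals ran between 68490566 and 110795261 counts. The transcripts of the sort markers Kit and Ly6a (which encodes Sca1) were present in every library, as were Cd34 and Flt3, which subdivide LSK cells. CM animal 2 stood apart from the other CM animals in several marker sums given below. Replicates within a genotype are separate animals.

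NAD carries electrons in metabolism and is also a substrate that is cut and must be replaced. Most is rebuilt from nicotinamide: NAMPT makes nicotinamide mononucleotide in the rate-limiting step. NMNAT enzymes then transfer the AMP part of ATP to this mononucleotide, which yields NAD. NADSYN1 completes the routes that start from nicotinic acid or tryptophan. CD38 and BST1 (CD157) are surface glycohydrolases that release nicotinamide and form ADP-ribose and cyclic ADP-ribose, the PARP enzymes build ADP-ribose chains at broken DNA, sirtuins use NAD to remove acetyl groups, and SARM1 is an NAD hydrolase best known from degenerating axons. In human marrow low surface CD38 marks the most primitive cells, whereas mouse stem cells carry CD38.

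In mm10, Bst1 (chromosome 5, 43818893 to 43843468, plus strand) and Cd38 (chromosome 5, 43868809 to 43912374, plus strand) are neighbours 25341 bases apart. The other members lie on 7 other chromosomes. Nampt is at chromosome 12, 32820335 to 32853369 on the plus strand, and overlaps the same-strand gene Gdap10, which had between 364 and 829 counts. Nmnat1 is at chromosome 4, 149467569 to 149485210 (minus strand). Nmnat3 is at chromosome 9, 98296570 to 98420533 (plus strand). Nadsyn1 is at chromosome 7, 143795591 to 143822852 (minus strand), and Sirt2 is at chromosome 7, 28766752 to 28788665 (plus strand). Parp1 is at chromosome 1, 180568891 to 180600999 (plus strand), Parp2 at chromosome 14, 50807916 to 50821301 (plus strand) and Sarm1 at chromosome 11, 78472330 to 78497754 (minus strand).

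RefSeq promoter windows of 300 bases in GRCm38.p6, the assembly named mm10, were matched for 9 of the 10 genes. The median over 32851 such windows was 7 CpG dinucleotides. The Cd38 window held 1, and 5.43% of windows held fewer. The other 8 matched genes held between 13 (Nmnat3) and 36 (Nampt). The letters TGTGGT, a core recognised by RUNX factors, the DNA-binding partners of CBFB, occurred on either strand in 16.8% of windows and, among the matched genes, in the Sirt2 window. The gene with the largest genotype difference (Cd38) and the most abundant member (Parp1) are printed to show this contrast in base composition, with each CG in capitals, the plus strand written 5′ to 3′.
Cd38, chr5:43868559-43868858: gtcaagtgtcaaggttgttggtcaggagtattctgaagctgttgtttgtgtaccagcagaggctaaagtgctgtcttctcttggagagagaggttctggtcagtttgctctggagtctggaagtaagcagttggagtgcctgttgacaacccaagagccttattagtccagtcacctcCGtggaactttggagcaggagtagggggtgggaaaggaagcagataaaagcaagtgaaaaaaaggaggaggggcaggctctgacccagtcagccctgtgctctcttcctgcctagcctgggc
Parp1, chr1:180568641-180568940: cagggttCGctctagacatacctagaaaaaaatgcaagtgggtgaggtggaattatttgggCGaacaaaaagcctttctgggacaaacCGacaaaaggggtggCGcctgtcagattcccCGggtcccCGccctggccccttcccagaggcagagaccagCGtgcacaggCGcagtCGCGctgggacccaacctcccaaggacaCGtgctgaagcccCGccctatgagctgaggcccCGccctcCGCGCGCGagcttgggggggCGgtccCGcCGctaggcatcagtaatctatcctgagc
The Parp1 window held 20 CpG dinucleotides, and 73.5% of windows held fewer.

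Per-length levels, the deposited RPKM (reads scaled for transcript length and library depth), spanned a wide range. The medians over the 12 libraries were 96.3 RPKM for Parp1, 56.4 for Nampt, 44.9 for Parp2 and 22.5 for Sirt2. Nmnat3, Nmnat1, Nadsyn1 and Cd38 followed at 5.95, 4.11, 3.61 and 3.11 RPKM, then Bst1 at 1.96 and Sarm1 at 0.0136. The first 4 genes kept their order of group means in all 4 groups. Cd38 did not keep its place: by mean RPKM it was the fifth of the 10 genes in CM IR and CM NIR cells, and the ninth in WT IR and WT NIR cells. Mean Cd38 was 11.3 ± 5.54 RPKM in CM IR and 12.2 ± 6.996 in CM NIR cells, against 1.73 ± 0.309 in WT IR and 1.52 ± 0.261 in WT NIR cells (SD, n = 3 each). Nmnat1, Nmnat3 and Nadsyn1, which were neighbours in the order, had ranges over the 12 libraries that ran into each other, as did Nampt and Parp2. Each Parp1 value was above each Nampt value, and each Parp2 value above each Sirt2 value.

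**Figure D1:**
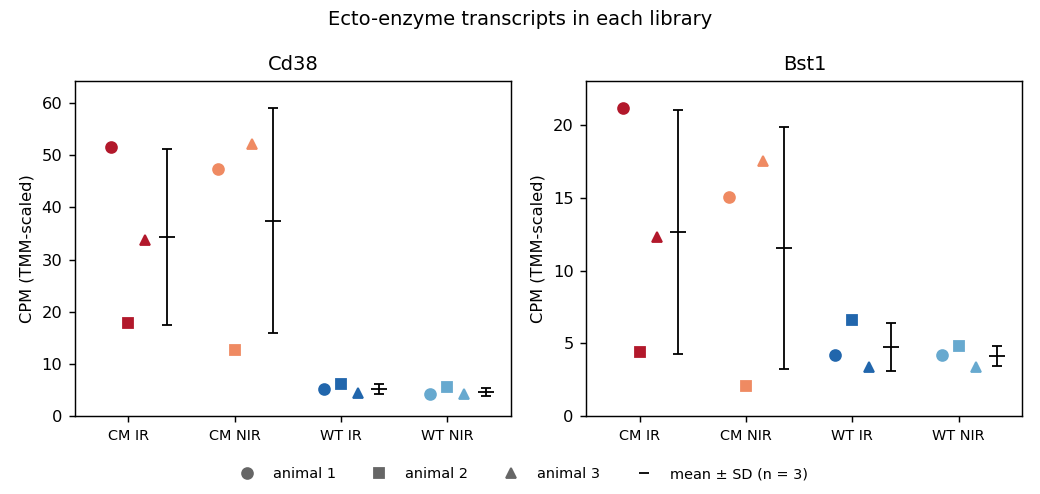
Scaled counts (CPM) of Cd38 (left) and Bst1 (right) by group, with 1 point a library, shapes for animals 1 to 3 of each genotype, and mean ± SD (n = 3). Each CM point of Cd38 lies above each WT point, while CM animal 2 of Bst1 lies among or below the WT points.

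Cd38 was higher in CM than in WT cells with and without irradiation, and was the single member that passed the test in either comparison. Cd38 had 51.6, 17.9 and 33.7 CPM (counts scaled to library size, with the trimmed mean of M-values) in irradiated CM animals 1, 2 and 3, against 5.12, 6.26 and 4.41 CPM in the irradiated WT animals. Without irradiation it had 47.4, 12.7 and 52.2 CPM in CM animals and 4.21, 5.54 and 4.18 CPM in WT animals. The lowest CM library held 999 raw Cd38 counts and the highest WT library 590. No CM library overlapped a WT library, and CM animal 2 was the lowest CM animal in both treatments.

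In edgeR's quasi-likelihood fit with Benjamini-Hochberg adjustment over 14599 genes, the Cd38 difference with irradiation was 6.54-fold in CM over WT (log2 2.71 ± 0.51 SE, adjusted p = 0.0475). Without irradiation it was 8.06-fold (log2 3.01 ± 0.52 SE, adjusted p = 0.0245). Higher calls made up 0.39% of genes tested in CM against WT cells with irradiation and 0.938% without, and 1 of the 10 genes, Cd38, was among them in each. Lower calls made up 0.274% and 0.685% of genes tested, with 0 of the 10 genes among them. Fully separated groups, with CM higher, were found for 9.23% of genes with irradiation and 8.14% without, against 8.36% and 7.84% with CM lower. Cd38 was the 1 member separated, as higher, in each.

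The Cd38 calls were close to the threshold and rested on several libraries. Leaving out both libraries of CM animal 2 gave log2 differences of 3.02 (adjusted p = 9.36e-04) with irradiation and 3.42 (adjusted p = 8.12e-04) without. Leaving out CM animal 1 gave 2.27 (adjusted p = 0.272) and 2.80 (adjusted p = 0.0879), and leaving out CM animal 3 gave 2.74 (adjusted p = 0.0662) and 2.70 (adjusted p = 0.0825), by the same edgeR test. Leaving out 1 WT animal gave values between 2.59 and 2.86 with irradiation (adjusted p between 0.202 and 0.368) and between 2.94 and 3.16 without (adjusted p between 0.117 and 0.207). Leaving out any single library of the compared groups also ended the calls, except for CM NIR animal 2 (log2 3.42, adjusted p = 0.00834). With the animal as a replicate block in limma-voom, the differences were 2.60 (adjusted p = 0.122) and 2.76 (adjusted p = 0.117), so neither call was kept. The library numbers in the sample descriptions fall in 2 series: one holds CM animals 1 and 2 with WT animal 1, the other CM animal 3 with WT animals 2 and 3. Cd38 was higher in each CM library than in each WT library within both series. With the series as a term in the edgeR fit, the differences were 2.80 (adjusted p = 0.0763) with irradiation, where the call was lost, and 3.07 (adjusted p = 0.0403) without. Each series holds a genotype with a lone animal, so no fit was made within a single series.

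Bst1, the paralog of Cd38 and the next gene along the chromosome, was split between CM animals. It had 21.2, 4.42 and 12.3 CPM in irradiated CM animals 1, 2 and 3, against 4.24, 6.62 and 3.40 CPM in irradiated WT animals. Without irradiation it had 15.05, 2.07 and 17.5 CPM in CM animals and 4.22, 4.82 and 3.39 CPM in WT animals. CM animals 1 and 3 were above each WT animal in both treatments, and CM animal 2 was within the WT range with irradiation and below it without. The fitted difference was log2 1.41 ± 0.70 with irradiation (adjusted p = 0.484) and 1.48 ± 0.70 without (adjusted p = 0.365, edgeR). Without both libraries of CM animal 2 it was 1.82 (adjusted p = 0.0162) and 1.97 (adjusted p = 0.00720). This setting was added after the data were seen. It called 1000 genes with and 2497 without irradiation, beside 97 and 237 in the fit of all 12 libraries. Without only the irradiated library of CM animal 2, the difference with irradiation was again 1.82 (adjusted p = 0.268, edgeR).

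The ratio of Cd38 to Bst1 within a library, taken per length, was higher in each CM library than in each WT library. It was 1.89, 3.14 and 2.13 in CM IR and 2.44, 4.75 and 2.31 in CM NIR libraries, against 0.936, 0.733 and 1.01 in WT IR and 0.773, 0.891 and 0.954 in WT NIR libraries. CM animal 2, with the lowest level of both transcripts among CM animals, had the highest ratio in both treatments. Cd38 was itself separated between the genotypes, so the ratio is not a result independent of it. How often ratios of other gene pairs are separated was not tested.

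**Figure D2:**
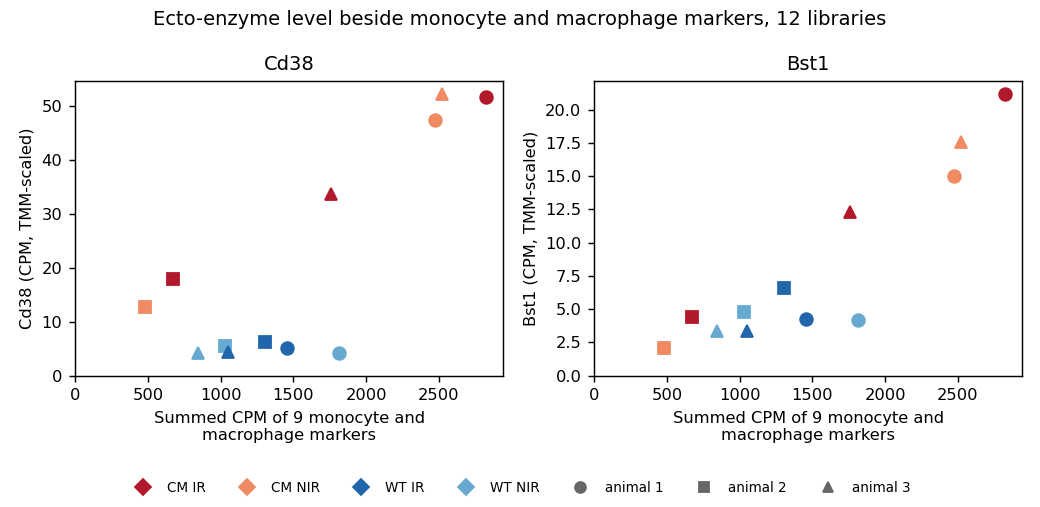
Scaled CPM of Cd38 (left) and Bst1 (right) against the summed CPM of 9 monocyte and macrophage markers, with 1 point for each of the 12 libraries, colours for groups and shapes for animals. CM animal 2 has the lowest marker sums, 671 and 480 CPM, and its Cd38 lies above that of each WT library.

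Markers of other cell types differed between libraries. In bulk RNA, fewer cells of a type and less RNA per cell cannot be told apart. All 9 monocyte and macrophage markers (Adgre1, C1qa, C1qb, C1qc, Csf1r, Cd68, Ly6c2, Ccr2, Itgam) were detected. Their sum ran between 671 and 2826 CPM in CM IR and between 480 and 2519 in CM NIR libraries, against 1053 to 1459 in WT IR and 841 to 1814 in WT NIR libraries. CM animal 2 held the lowest sum in each treatment, and its Bst1 and Cd38 were the lowest of the CM animals. Its Cd38, 17.9 and 12.7 CPM, was above that of each WT library. None of the 9 markers was separated between genotypes. The part of these cells in the Cd38 and Bst1 differences was not tested.

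The 8 mast cell and basophil markers summed to 321 to 1446 CPM in CM IR and 282 to 1701 CPM in CM NIR, against 251 to 397 CPM in WT IR and 233 to 590 CPM in WT NIR libraries. Of these, 4 (Cpa3, Fcer1a, Tpsb2 and Cma1) were separated as higher and 1 (Prss34) as lower in CM in each treatment. CM animal 2 held the lowest of the CM sums in each treatment, as it did for the monocyte and macrophage markers. The part of mast cells and basophils in the Cd38 difference was not tested. Of 9 markers of B cells, which can carry CD38, Cd79b gave most of a sum of 13.9 to 19.4 CPM over all libraries. Neutrophil markers summed to 2066 to 2887 CPM in CM IR and 1655 to 2039 CPM in CM NIR, against 3566 to 4407 CPM in WT IR and 2549 to 3278 CPM in WT NIR libraries. Mpo gave most of each sum, at 1401 to 1941 CPM in CM NIR and 2156 to 2626 CPM in WT NIR libraries. Of the 10 markers, 8 were separated as lower in CM with irradiation and 7 without. In each treatment 1, Cxcr2, was separated as higher. Eosinophil markers summed to 18.8 to 39.9 CPM in CM IR and 8.99 to 25.7 CPM in CM NIR, against 124 to 188 CPM in WT IR and 90.0 to 170 CPM in WT NIR libraries. Of these 6 markers, 4 were separated as lower in CM with irradiation and 5 without. Siglecf was the 1 separated as higher in each. The 7 megakaryocyte markers summed to 257 to 456 CPM in CM IR and 197 to 483 CPM in CM NIR, against 118 to 189 CPM in WT IR and 100.04 to 282 CPM in WT NIR libraries, and CM animal 2 was the lowest CM animal. Of the T and NK cell markers, 9 of 10 were in the table, and they summed to 11.9 to 46.3 CPM in CM IR and 9.82 to 38.1 CPM in CM NIR, against 39.2 to 47.9 CPM in WT IR and 31.6 to 39.6 CPM in WT NIR libraries, with CM animal 2 the highest CM animal. A list of 8 stem cell markers summed to 194 to 561 CPM in CM IR and 195 to 618 CPM in CM NIR. WT IR libraries held 211 to 280 CPM and WT NIR libraries 195 to 322 CPM. CM animal 2 held the highest sum in each treatment, and 405.7 and 415.9 CPM of its sums were Cd48. Mouse stem cells lack Cd48 and more committed progenitors carry it. In CM NIR libraries the highest values of Hlf and Mecom of the same list were 126.6 and 24.6 CPM, against 85.1 and 12.5 CPM in WT NIR. The highest Fgd5 value was 1.68 against 2.95 CPM. For each of these genes the lowest CM NIR value was below the lowest WT NIR value (Hlf 18.8 against 31.7 CPM), so the groups overlapped. In each treatment 1 of the 8, Slamf1, was separated as higher in CM and 0 as lower. Slamf1 had 3.06 to 6.37 CPM in CM IR and 3.64 to 7.40 CPM in CM NIR libraries. WT IR libraries held 1.67 to 1.74 CPM of it and WT NIR libraries 1.83 to 2.05 CPM. The erythroid genes Hba-a1, Hbb-bt and Hbb-bs were listed at 0 in all libraries. The part of these other cells in the differences of the 10 genes was not tested.

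The genes whose log2 CPM over the 12 libraries was most like that of Cd38 were Bank1 (Pearson r = 0.990), Hopx (0.989), Lrg1 (0.985), Maob (0.984) and Chst15 (0.982). Bank1 ran between 2.41 and 16.8 CPM in CM libraries and between 0.376 and 0.738 CPM in WT libraries. Those most like Bst1 were Mmp19 (0.987), Cd33 (0.982), Gda (0.979), Mtus1 (0.978) and Rab7b (0.976). Cd33, a myeloid sialic acid receptor, ran between 18.3 and 72.3 CPM in CM and between 25.1 and 33.0 CPM in WT libraries. Cd38 and Bst1 correlated with each other at 0.816. The 12 libraries come from 6 animals and share their genotype groups, so these values are descriptions with no p.

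**Figure D3:**
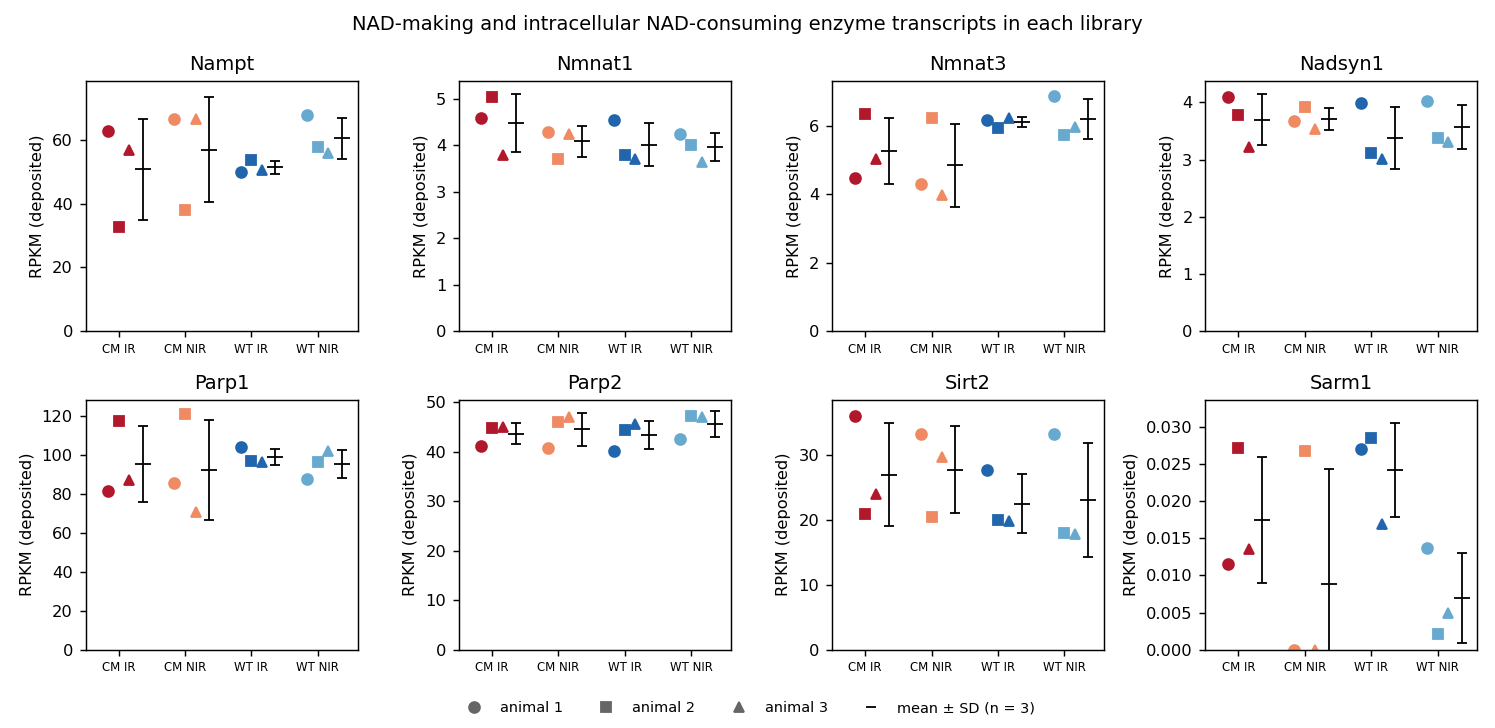
Deposited RPKM of the 4 NAD-making and the 4 intracellular NAD-consuming genes by group, with 1 point a library, shapes for animals, and mean ± SD (n = 3, bars cut at 0). Parp2 stays within 40.2 to 47.2 RPKM, while Nampt and Parp1 of CM animal 2 lie away from the other CM animals.

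Among the NAD-making genes, none passed the test between genotypes. Nampt, the rate-limiting salvage enzyme, had 287.7, 149.4 and 264.8 CPM in CM IR animals 1, 2 and 3, against 229.2, 247.0 and 232.4 CPM in WT IR animals. Without irradiation it had 309.6, 174.8 and 307.4 CPM in CM and 314.2, 265.5 and 257.0 CPM in WT animals. CM animal 2 was the lowest of all 6 animals in both treatments, while the other CM animals lay above the WT range with irradiation and within it without. The fitted differences were log2 -0.01 ± 0.26 (adjusted p = 0.991, edgeR) with irradiation and -0.08 ± 0.26 (adjusted p = 0.907) without.

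Nmnat1, which encodes the nuclear adenylyltransferase, had 11.3, 12.4 and 9.49 CPM in CM IR, 10.7, 9.17 and 10.6 in CM NIR, 11.2, 9.34 and 9.18 in WT IR and 10.6, 9.86 and 9.005 in WT NIR animals. Its ranges overlapped between all groups, and the genotype differences were log2 0.16 ± 0.14 with and 0.05 ± 0.14 without irradiation. Nmnat3, which encodes the mitochondrial enzyme, had 11.6, 16.4 and 13.2 CPM in CM IR, 11.4, 16.3 and 10.4 in CM NIR, 16.1, 15.5 and 16.2 in WT IR and 18.0, 14.9 and 15.6 in WT NIR animals. CM animals 1 and 3 lay below each WT animal, and CM animal 2 lay among or above them. Its differences were log2 -0.21 ± 0.18 (adjusted p = 0.724, edgeR) and -0.35 ± 0.18 (adjusted p = 0.416). Without CM animal 2 the difference without irradiation was -0.57 (adjusted p = 0.0183). With irradiation it was -0.36 (adjusted p = 0.108), by the same edgeR test. That setting was added after the data were seen. Without irradiation it called 2497 genes, beside 237 in the fit of all 12 libraries.

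Over the 12 libraries Nmnat3 ran opposite to both ectoenzymes, with Pearson r of -0.899 against Bst1 and -0.858 against Cd38. Nadsyn1 had between 8.70 and 10.9 CPM in CM IR and between 9.51 and 10.5 in CM NIR, against 8.07 to 10.7 in WT IR and 8.86 to 10.8 in WT NIR libraries. These ranges overlapped, and its genotype differences were log2 0.13 ± 0.15 and 0.06 ± 0.15.

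The intracellular consumers did not pass the test between genotypes either. Parp1, the main sensor of DNA breaks among the PARP enzymes, had 301.2, 432.7 and 325.4 CPM in CM IR animals 1, 2 and 3, against 383.4, 357.2 and 356.6 CPM in WT IR animals. Without irradiation it had 319.9, 447.6 and 262.3 CPM in CM and 326.9, 354.8 and 377.0 CPM in WT animals. CM animal 2 was the highest of all 6 animals, and CM animals 1 and 3 were the lowest in each treatment. The fitted differences were log2 -0.05 ± 0.19 (adjusted p = 0.945, edgeR) and -0.04 ± 0.19 (adjusted p = 0.937).

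Parp2, a second DNA-break-activated polymerase, was the steadiest member, with a highest library 1.18 times the lowest. It had 75.7, 82.1 and 83.5 CPM in CM IR, 76.0, 84.7 and 87.0 in CM NIR, 73.8, 81.4 and 84.1 in WT IR and 78.9, 86.6 and 86.5 in WT NIR animals. The genotype differences were log2 0.01 ± 0.09 with and -0.02 ± 0.09 without irradiation. By the same measure the spread was 12.5 times for Cd38 and 10.2 times for Bst1, and at most 2.10 times for the other members apart from Sarm1.

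Sirt2, a mostly cytoplasmic deacetylase, had 67.8, 39.3 and 45.6 CPM in CM IR, 63.5, 38.6 and 56.3 in CM NIR, 52.2, 37.7 and 37.3 in WT IR and 63.2, 33.9 and 33.7 in WT NIR animals. Animal 1 of each genotype was the highest, and the genotypes overlapped. Its differences were log2 0.26 ± 0.30 (adjusted p = 0.793, edgeR) and 0.28 ± 0.30 (adjusted p = 0.696). Sarm1 was near the counting limit, with 5, 12 and 6 raw counts in CM IR, 0, 11 and 0 in CM NIR, 12, 14 and 10 in WT IR and 5, 1 and 2 in WT NIR animals. A count of 0 allows up to 3 counts, or 0.0399 and 0.0405 CPM in CM NIR animals 1 and 3, and covers counting error only. Its genotype differences were not detectable at this depth (log2 -0.45 ± 0.94 and 0.45 ± 1.18).

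**Figure D4:**
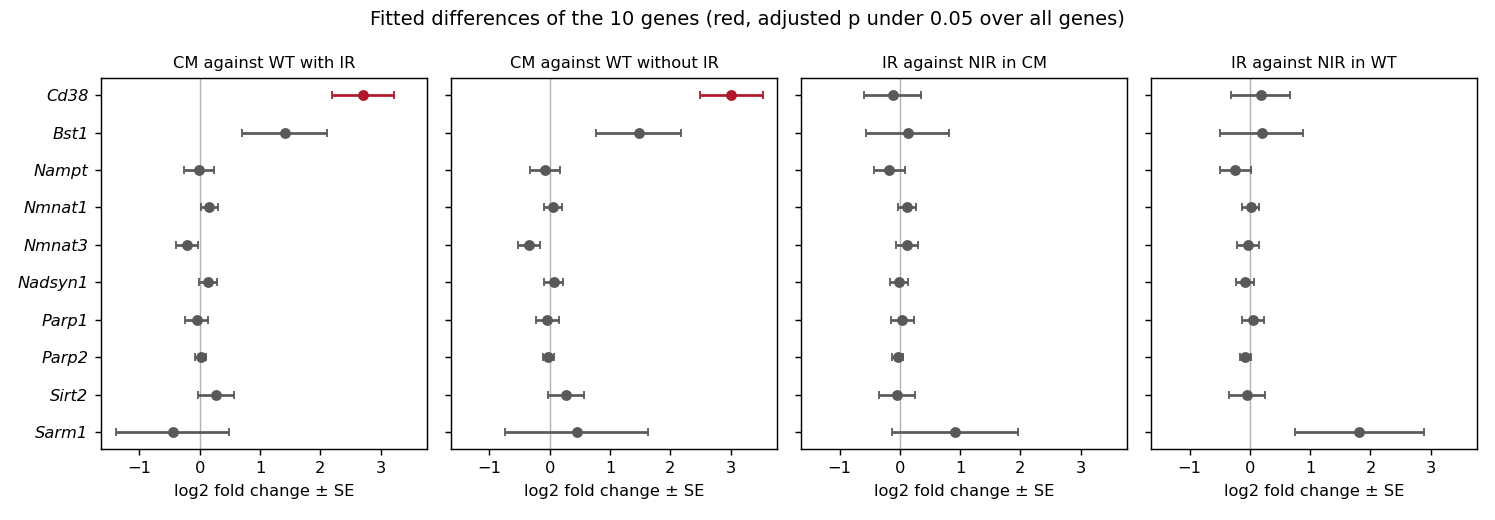
Fitted log2 fold change ± SE of the 10 genes in 4 comparisons (CM over WT with and without irradiation, IR over NIR in CM and WT), with red for adjusted p under 0.05. Cd38 is red in both genotype comparisons and nothing is red in the irradiation comparisons.

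Across the list, the median fitted difference of the 10 genes was log2 0.07 in CM over WT cells with irradiation and 0.06 without, and the median of all genes tested was 0.02 in both. Of the 10 genes, 6 had positive values in each comparison.

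Irradiation changed none of the 10 transcripts past the threshold in either genotype. Calls made up 0.00685% of genes tested in CM cells and 0.116% in WT cells, and 0 of the 10 genes were called in each by edgeR. At an unadjusted p under 0.05, 237 genes were reached in CM cells and 591 in WT cells, again with 0 of the 10. The medians over the 10 genes were log2 0.01 in CM and -0.005 in WT cells. The fit behind these values had no animal term, although each animal gave a library to both treatments. With the animal as a block in edgeR, 0 genes were called in CM cells and 163 in WT cells, with 0 of the 10 in each.

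Within CM animals 1, 2 and 3, Cd38 in irradiated minus unirradiated cells was log2 0.12, 0.50 and -0.63. Within WT animals it was 0.28, 0.18 and 0.08. The CM animals did not share a direction, and the WT animals did. CM animal 3, the one that went down, had the least alike pair. Deviations from the group means correlated at 0.125 between its libraries, and its unirradiated library correlated best with irradiated CM animal 1 (0.686). The fitted values were -0.12 ± 0.48 in CM (adjusted p = 0.99996, edgeR) and 0.18 ± 0.49 in WT cells (adjusted p = 1). For Bst1 the values within CM animals were log2 0.49, 1.09 and -0.51, and within WT animals 0.005, 0.46 and 0.001.

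Nampt was lower after irradiation in 6 of 6 animals, by log2 -0.11, -0.23 and -0.22 in CM and -0.46, -0.10 and -0.14 in WT animals. In WT cells the irradiated and unirradiated libraries did not overlap, as was so for 6.63% of genes with lower and 7.47% with higher values after irradiation. Sarm1, at counts of at most 14, was the member separated as higher. In CM cells 0 of the 10 genes were separated, beside 0.986% of genes lower and 1.57% higher. The fitted Nampt changes were log2 -0.17 ± 0.26 in CM and -0.24 ± 0.26 in WT cells. With the animal as a block in edgeR they were -0.18 (adjusted p = 0.747) and -0.23 (adjusted p = 0.237).

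Parp2 was also lower in 6 of 6 animals, by at most log2 -0.10 in any animal. Parp1 went in different directions, at log2 -0.09, -0.05 and 0.31 in CM and 0.23, 0.01 and -0.08 in WT animals. The difference of the irradiation responses, CM minus WT, was called for 0% of genes by edgeR, 0 by DESeq2 and 0 by limma-voom, and 106 genes had an unadjusted p under 0.05. For Cd38 it was log2 -0.30 ± 0.68 (adjusted p = 0.99999).

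A further 70 genes of NAD metabolism, listed by function, were read beside the 10. Of these, 64 passed the filter. Those that did not were Tdo2, Acmsd, Nmrk2, Art1, Art2a and Ryr2. In CM against WT cells without irradiation 0 rose and 1, Tpcn1, fell; with irradiation, and after irradiation in each genotype, 0 passed in either direction. The median difference of the 64 was log2 0.08 with irradiation and 0.05 without, beside 0.02 for all genes. Positive values were found for 35 and 34 of the 64. Without irradiation 4 were separated as higher in CM and 9 as lower, beside 8.14% and 7.84% of all genes. With irradiation these were 3 and 8, beside 9.23% and 8.36%. After irradiation of WT cells 7 were separated as higher and 3 as lower, beside 7.47% and 6.63%. The genes named below are those past the threshold and those with the smallest p in a comparison, so their separation is a description.

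**Figure D5:**
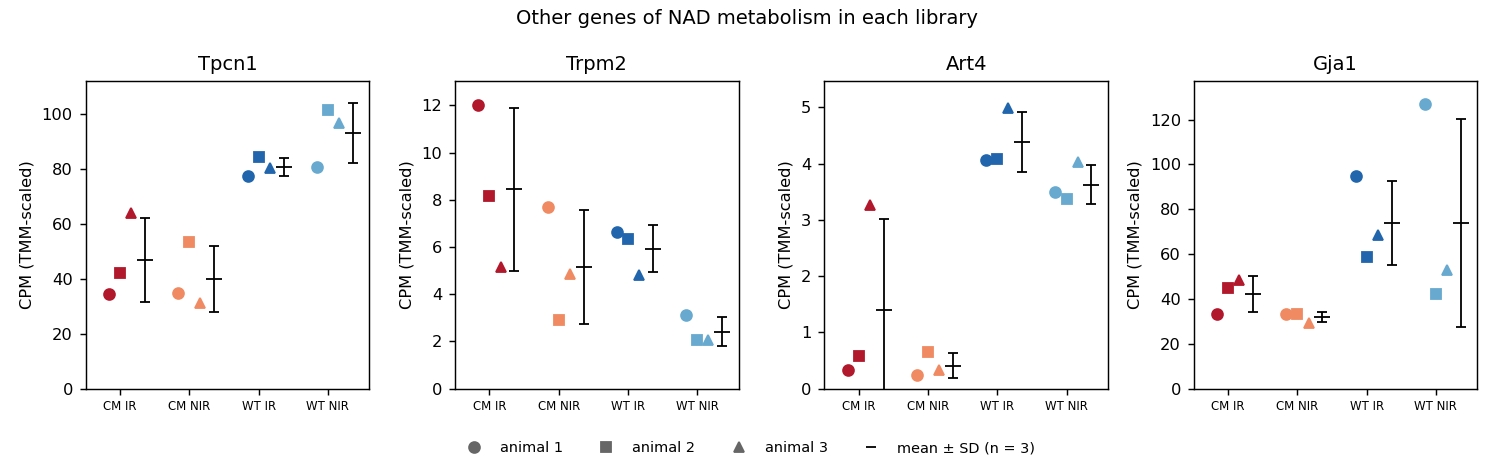
Scaled CPM of Tpcn1, Trpm2, Art4 and Gja1 by group, with 1 point a library, shapes for animals, and mean ± SD (n = 3, bars cut at 0). Tpcn1 is lower in each CM library than in each WT library, and Trpm2 of each WT animal is higher with irradiation.

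Tpcn1, an endolysosomal cation channel linked to NAADP, a second messenger that CD38 can form, had 34.4, 42.0 and 63.9 CPM in CM IR and 34.96, 53.6 and 31.4 in CM NIR, against 77.7, 84.3 and 80.6 in WT IR and 80.7, 101.5 and 97.0 in WT NIR animals. No CM library reached a WT library. The fitted difference was log2 -1.22 ± 0.24 without irradiation (adjusted p = 0.0400, edgeR) and -0.79 ± 0.24 with it (adjusted p = 0.186). With the animal as a block in limma-voom the first was -1.25 (adjusted p = 0.181). Leaving out CM animal 1, or any of the WT animals, also ended the call, with values between -1.32 and -1.14. So did leaving out any single unirradiated library other than that of CM animal 2.

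Art4, a surface protein of the ADP-ribosyltransferase family, had 0.324, 0.587 and 3.27 CPM in CM IR and 0.239, 0.660 and 0.324 in CM NIR, against 4.07, 4.08 and 4.998 in WT IR and 3.49, 3.36 and 4.02 in WT NIR animals. Every CM library was below every WT library, and irradiated CM animal 3 was the highest of the CM libraries. Its difference without irradiation was log2 -3.14 ± 0.75 (adjusted p = 0.0715, edgeR). The change with irradiation in CM cells was 1.77 ± 0.73 (adjusted p = 0.99996). It came from CM animal 3: the values within CM animals 1, 2 and 3 were log2 0.40, -0.16 and 3.24, and without the irradiated library of animal 3 the fitted change was 0.16. Gja1, a connexin whose channels can pass NAD, had 33.3, 33.5 and 29.4 CPM in CM NIR and 127.0, 42.1 and 52.7 in WT NIR animals, without overlap (log2 -1.20 ± 0.36, adjusted p = 0.139, edgeR). Without the WT NIR library of animal 1, the highest, the difference was -0.56 (adjusted p = 0.188).

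Trpm2, a calcium channel opened by ADP-ribose, was higher after irradiation in 6 of 6 animals. It had 12.02, 8.16 and 5.16 CPM in CM IR and 7.72, 2.92 and 4.86 in CM NIR, and 6.64, 6.35 and 4.80 CPM in WT IR against 3.14, 2.06 and 2.06 in WT NIR animals. The WT groups did not overlap and the CM groups did. The changes were log2 0.71 ± 0.38 in CM (adjusted p = 0.99996, edgeR) and 1.29 ± 0.39 in WT cells (adjusted p = 0.559). The difference between the genotypes' responses was -0.58 ± 0.54.

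Nadk2, which makes mitochondrial NADP, was lower after irradiation in 6 of 6 animals, at 60.8 ± 3.07 CPM in CM IR against 66.6 ± 1.64 in CM NIR, and 59.8 ± 3.07 in WT IR against 68.5 ± 4.56 CPM in WT NIR animals (SD, n = 3 each). Its fitted changes were log2 -0.13 ± 0.08 and -0.20 ± 0.08, neither past the threshold. Nnt, the mitochondrial transhydrogenase, averaged 53.2 ± 0.657 CPM in WT IR and 46.6 ± 3.14 CPM in WT NIR animals (SD, n = 3), a fitted change of 0.19 ± 0.09 that did not pass.

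Of the tryptophan route to NAD, Haao had 24.98, 19.1 and 14.2 CPM in CM IR and 15.5, 12.2 and 11.6 CPM in WT IR animals (log2 0.57 ± 0.19, adjusted p = 0.233, edgeR). These overlapped through CM animal 3. Ido1 was under 0.4 CPM in every library, with a difference of log2 -1.30 ± 0.41 in irradiated CM over WT cells (adjusted p = 0.204). Ido2, also of low level, had a difference of responses of log2 -0.80 ± 0.60.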

How the data were processed

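The authors' deposited tables give raw counts per gene and RPKM values per gene for 12 libraries. Per the submitters' processing notes, bcl2fastq 2.18.0.12, TopHat2 and HTSeq 0.6.1p1 were used with mm10; the settings, annotation and strand option were not stated. The deposited RPKM are the authors' values. The library kit was stranded, per the labels' protocols.

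Samples were grouped by genotype and treatment labels. Counts were fitted with edgeR 4.0.16 in R 4.3.3 (quasi-likelihood, TMM scaling, filterByExpr with a minimum count of 10 and a total of 15, 1 mean per group over the 12 libraries, no animal term), with Benjamini-Hochberg adjustment over 14599 genes and a threshold of 0.05. The fit was tested on simulated counts drawn independently for each library. That test therefore does not cover libraries that share an animal, as the real ones do. Members and lists were chosen with earlier results of these data known. All members were named; of the other NAD genes, those past the threshold and the 3 with the smallest p in each comparison; and the 5 genes most correlated with Cd38 and with Bst1, leaving out predicted genes. Promoter windows came from RefSeq (GRCm38.p6), and gene coordinates were those the authors deposited beside the counts.

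Animal numbers in the sample descriptions pair the irradiated and unirradiated libraries. Deviations from the group means correlated within animals at 0.672, 0.504 and 0.412 in WT and 0.790, 0.844 and 0.125 in CM; unirradiated CM animal 3 correlated best with irradiated CM animal 1 (0.686). Alternatives used DESeq2 1.42.0 and limma 3.58.1, the animal as block, each library or animal left out, and log2(RPKM + 0.1 or 1).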

Additional observations from a re-analysis of the deposited data

How the results depend on the processing

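Cd38 was higher in CM than in WT cells under each of 21 alternatives per treatment, at log2 2.07 to 3.02 with irradiation and 2.19 to 3.42 without; it passed the threshold in 3 and 7 of them, and the adjusted p reached 0.368 and 0.207. Of 995 values of members that did not pass, 981 moved by less than 1 SD under an alternative, 138 changed sign (0 of these passed) and 3 now passed, each without CM animal 2. The number of genes passing irradiated against unirradiated in CM cells (1) was 18 with DESeq2, 0 with a replicate block for the animal (fitted by edgeR) or with the 2 groups compared alone, 3 without CM animal 2, 0 without CM animal 3, and 0 to 3 with 1 library left out. In WT cells (17) it was 140 with DESeq2, 31 with limma-voom, 163 with the replicate block, 92 with the 2 groups alone, 40 and 52 on log2(RPKM + 0.1) and log2(RPKM + 1), 1 without any 1 WT animal, and 1 to 4 with 1 library left out. For CM against WT with irradiation (97) it was 14 with the library series as a term, 652 with DESeq2, 156 with limma-voom, 13 with the replicate block (limma-voom), 0 with the 2 groups alone, 162 on log2(RPKM + 1), 4, 1000 and 204 without CM animals 1, 2 and 3, 2, 1 and 2 without WT animals 1, 2 and 3, and 3 to 270 with 1 library left out. Without irradiation (237) it was 922 with DESeq2, 5 with the replicate block, 78 with the 2 groups alone, 31, 2497 and 147 without CM animals 1, 2 and 3, 2, 2 and 3 without WT animals 1, 2 and 3, and 4 to 914 with 1 library left out. The difference of responses (0) had 1 gene on log2(RPKM + 1). The members passing with irradiation (1) were 0 with DESeq2's size factors, the series term, limma-voom, the replicate block, the 2 groups alone, either RPKM scale, CM animal 1 or 3 left out, any WT animal left out or any library left out, and 2 without CM animal 2. Without irradiation (1) they were 0 with limma-voom, the replicate block, the 2 groups alone, log2(RPKM + 1), CM animal 1 or 3 or any WT animal left out, 3 without CM animal 2, and 0 to 1 with 1 library left out. Of the other NAD genes, with irradiation (0) 1 passed with DESeq2, 3 without CM animal 2, 2 without CM animal 3 and 0 to 2 with 1 library left out. Without irradiation (1) 0 passed with the series term, the replicate block, or CM animal 1 or any WT animal left out; 4 passed with DESeq2, 2 on each RPKM scale, 14 without CM animal 2, 2 without CM animal 3, and 0 to 2 with 1 library left out. The replicate block changed no call of a member or other named gene apart from those of Cd38 and Tpcn1. Settings that leave out samples fit fewer libraries; for the others the cause was not tested. With 3 animals a group, and Sarm1 at no more than 14 counts, smaller differences could not be resolved. Animals left out as pairs, other than CM animal 3, were added after the data were seen.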
